A study of Homo sapiens with 24 samples.

Results

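JJN3 is an established human multiple myeloma line, that is, malignant plasma cells grown in culture, and here it was labelled p53 null. The comparison described here sets 3 JJN3 libraries treated with CX-5461 at 500 nM together with panobinostat at 50 nM against 3 JJN3 libraries treated with panobinostat at 50 nM alone, each for 24 h. They were taken from the sample titles and are 6 of the 24 libraries of the series. Those 24 libraries are 3 replicates of CX-5461 plus panobinostat, CX-5461, panobinostat and vehicle in JJN3 and in MM1.S, a myeloma line labelled p53 wild type. The other 6 JJN3 libraries (CX-5461 at 500 nM, and vehicle) and the 12 MM1.S libraries are used to estimate the spread and to test whether the change depends on panobinostat or on the line. The labels give the genotype of both lines as wild type beside the p53 status. They do not say whether replicates were separate cultures, so the p-values measure the spread between these libraries, which may be technical. The comparison asks what CX-5461 changes in cells that are already exposed to panobinostat.

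CX-5461 blocks RNA polymerase I, which makes ribosomal RNA in the nucleolus, and it is also known to stabilise G-quadruplex DNA and to engage DNA topoisomerase II. Panobinostat inhibits histone deacetylases, the enzymes that remove acetyl groups from histones, and so raises histone acetylation, which opens many silent genes and lowers highly transcribed ones. Plasma cells depend on a small set of transcription factors (IRF4, PRDM1, XBP1, IKZF3) and on survival receptors for BAFF and APRIL. In JJN3 the transcription factor MAF is known to be driven by a translocation to the immunoglobulin locus. The 3′ RNA sequencing used here read polyadenylated RNA, so ribosomal RNA, the product of RNA polymerase I, was not measured.

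Total counts of the 6 libraries ranged from 4751893 to 6915633, and a count of 0 in the shallowest allows up to 0.631 CPM (counts scaled to a common library total), for counting error only. Of the plasma cell markers, JCHAIN (1862 to 2451 CPM with both drugs, 2100.3 to 2694 with panobinostat) and SDC1 were expressed, whereas CD38 and CD27 were at or near 0. Of 10 T and NK cell markers 4 were at 0 in the 6 libraries, CD3D and NKG7 among them, and the list summed to 5.24 to 10.2 CPM with both drugs and 4.84 to 8.23 CPM with panobinostat, mostly TRAC (4.03 to 7.61 and 2.95 to 6.66 CPM). Of 10 myeloid markers 5 were at 0, LYZ and CD163 among them, and the list summed to 3.03 to 7.52 CPM with both drugs and 2.31 to 5.49 CPM with panobinostat. The erythroid list summed to 585 to 1072 CPM with both drugs and 484 to 1043 CPM with panobinostat, mostly HBB, which was also high in vehicle libraries. The stroma list summed to 3.43 to 12.6 CPM with both drugs and 1.47 to 5.49 CPM with panobinostat, with 2 of 10 markers, VWF and CDH5, at 0. Its collagen gene COL1A1 was at 6.80, 1.61 and 7.99 CPM with both drugs, against 2.57, 0 and 3.14 CPM with panobinostat, and was called higher with the block (edgeR adjusted p = 0.0162, and 0.444 without it). With replicate 1 or 3 left out of the block fit, no gene of the stroma list was called. The epithelium list, with 2 of 7 markers at 0, summed to 10.9 to 17.6 CPM with both drugs and 9.31 to 14.5 CPM with panobinostat. On it EPCAM was at 7.52 to 8.07 and 7.38 to 10.6 CPM, and CDH1 was higher in each pair, at 5.64, 1.61 and 7.24 CPM with both drugs, against 1.60, 0.421 and 1.57 CPM with panobinostat. No gene of the epithelium list was called with the block on all libraries. The part of these markers in the results was not tested. As the RNA is from bulk cultures, fewer cells of a kind and less RNA per cell cannot be told apart.

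CX-5461 moved the JJN3 transcriptome further along the axis that parts panobinostat from no panobinostat. On the first principal component (63.0% of the variance over the 12 JJN3 libraries) the libraries with both drugs scored 59.2, 39.7 and 56.0, against 38.5, 13.6 and 36.1 with panobinostat, while all those without panobinostat were negative. Each library with both drugs lay above the panobinostat library of the same replicate number, by 20.8, 26.1 and 19.9. The replicate numbers pair the libraries: deviations from the group means correlated at 0.388 to 0.466 between same-numbered libraries of the 2 groups. Over all pairs of JJN3 groups the range was 0.201 to 0.485 for the same number and -0.337 to -0.00791 for different numbers. Deviations within a group sum to 0, so these last 2 ranges are not independent.

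Of 11411 genes tested by edgeR's quasi-likelihood test at an adjusted p under 0.05, 21 (0.184%) were higher and 82 (0.719%) lower with both drugs than with panobinostat when replicate numbers were ignored. With the replicate number as a block, 659 (5.78%) were higher and 740 (6.48%) lower. All 103 genes of the first count were among the 1399 of the second, in the same direction (0.903% of the genes tested), and 1390 of the 1399 changed the same way in all 3 pairs. Of the 1399, 189 are past 2-fold, 122 higher and 67 lower. Both counts depend on the libraries. Without the block, edgeR called 0 genes once replicate 1 of the combination was left out, and 0 higher and 22 lower without replicate 2 of panobinostat, while 1611 genes had an unadjusted p under 0.05 on all libraries. With the block, 129 were higher and 188 lower without replicate 1, 455 and 563 without replicate 2, and 340 and 465 without replicate 3. DESeq2 called 79 higher and 185 lower without the block, and 391 and 569 with it. Scaling by library size in place of TMM (a trimmed mean that sets the typical gene at no change) shifted the median gene by 0.0835 in log2 units, and the share of higher calls with the block was then 71.2%, against 47.1% under TMM. The fit without the block was planned as the main one and the fit with it as an alternative. That same-numbered libraries pair was seen in these same data. In what follows, a gene rose or fell if it passed with the block, and the adjusted p without the block is given for the genes described in detail. Log2 fold changes, their SE and fold changes are from the fit with the block, except in the comparison with MM1.S or where another fit is named. An SE therefore does not belong to an adjusted p given without the block, which comes from a fit with a wider spread. Of the genes described below as rising or falling, SEZ6L2, F2RL3, ELL2, IRF4, ITGB7, UBTF, TAF1D, POLR2E, POLR2K, GAS5, BTG2, RRM2B, RRM2, MKI67, KIF20A, CDC20, ATF4, HMGCS1, HDAC7 and CYB561 did not pass when at least 1 replicate number was left out of the block fit, nor did others where this is said.

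**Figure D1:**
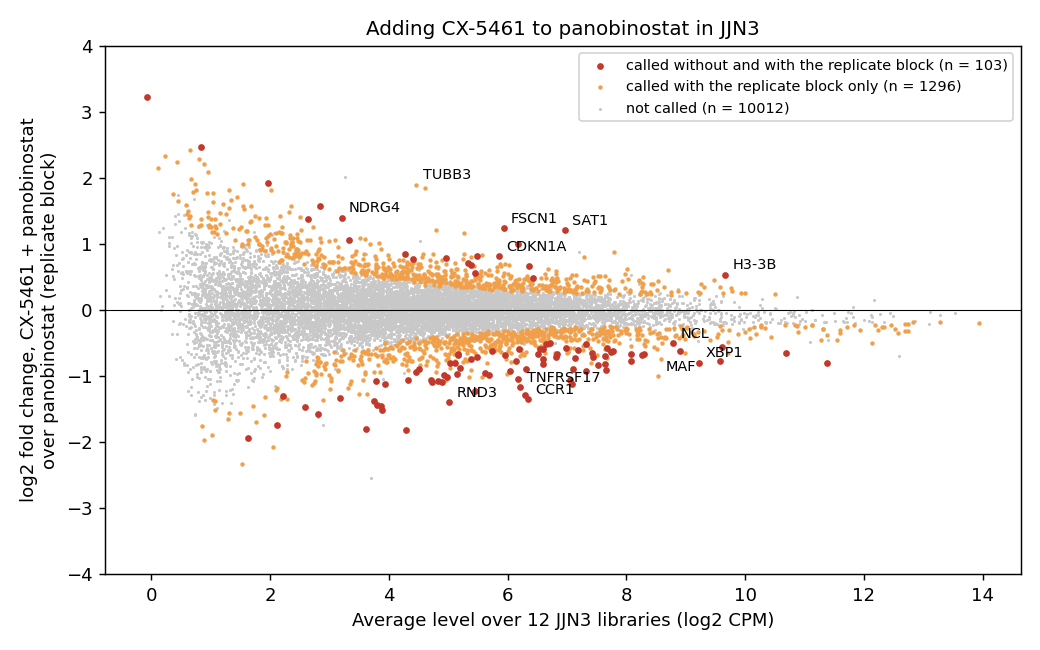
Log2 fold change of CX-5461 plus panobinostat over panobinostat (replicate block) against the average level in log2 CPM, 1 point per gene for 11411 genes. Red points (103) were called without and with the replicate block and orange points (1296) with the block only, among them MAF and TUBB3, while XBP1, TNFRSF17, RND3 and CCR1 lie below 0 in red.

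Many members of a list of plasma cell identity genes fell, though the markers SDC1 and JCHAIN did not pass. Of 17 tested members of a plasma cell identity list, 0 rose and 10 fell with the block, and 0 and 7 passed without it, against 6.48% and 0.719% of all genes lower. The median log2 fold change of the list was -0.51, against 0.01 for all genes. TNFRSF17 (NCBI Gene 608), which encodes BCMA, the receptor through which BAFF and APRIL sustain plasma cells, was at 24.6, 24.3 and 27.7 CPM with both drugs, against 60.0, 52.5 and 58.6 CPM with panobinostat. The groups did not overlap, and the gene fell by 1.17 ± 0.13 on the log2 scale (SE, n = 3 each, edgeR adjusted p = 0.00781 without the block and 2.49e-07 with it), a 2.24-fold fall. TNFRSF13B, which encodes TACI, the other receptor of these ligands on B lineage cells, was at 10.5, 7.85 and 12.1 CPM with both drugs, against 19.8, 20.8 and 24.9 CPM with panobinostat, again with no overlap (log2 fold change -1.09 ± 0.15, edgeR adjusted p = 0.0129 without the block).

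XBP1 (NCBI Gene 7494), the transcription factor that builds the secretory apparatus of plasma cells, was at 277, 295 and 291 CPM with both drugs, against 473, 546 and 483 CPM with panobinostat. Every library with both drugs lay below every panobinostat library, and the log2 fold change was -0.80 ± 0.08 (edgeR adjusted p = 0.00353 without the block and 2.32e-08 with it). MZB1, an endoplasmic reticulum protein that assists antibody secretion, was at 69.2, 86.3 and 65.4 CPM with both drugs, against 130.1, 174 and 115 CPM with panobinostat. It fell 1.89-fold, and it passed without the block too. IKZF3, a lymphoid transcription factor, POU2AF1, a coactivator of octamer-binding factors, and ELL2, an elongation factor that favours the secretory form of immunoglobulin mRNA, fell by 0.65 ± 0.10, 0.66 ± 0.12 and 0.51 ± 0.09 on the log2 scale, and each also passed without the block (edgeR adjusted p = 0.0308, 0.0371 and 0.0495).

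IRF4, the factor on which myeloma cells are known to depend, was at 85.2, 73.2 and 104 CPM with both drugs, against 118, 102 and 117 CPM with panobinostat. These groups overlapped, and the fall (log2 fold change -0.37 ± 0.09) passed with the block alone (edgeR adjusted p = 0.302 without it and 0.00738 with it). MEF2C, a transcription factor of B cells, and CD79B, a component of the B cell receptor, also fell with the block alone. Neither MEF2C nor CD79B passed with replicate 1 left out of the block fit. The other 7 members, PRDM1, SDC1, SLAMF7, POU2F2, IKZF1, JCHAIN and FCRL5, did not pass. Of the 17 members 2 had a positive log2 fold change. PRDM1 was higher in each pair, at 74.3, 60.7 and 67.0 CPM with both drugs, against 66.3, 53.7 and 62.9 CPM with panobinostat (per library total). JCHAIN, the joining chain of secreted antibody, had a log2 fold change of -0.17 ± 0.07 and SDC1, the surface proteoglycan CD138, -0.28 ± 0.11 (edgeR adjusted p = 0.122 and 0.101 with the block). Leaving out replicate 1, 2 or 3 in the block fit left 6, 7 and 9 members lower and 0 higher.

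MAF and genes known to follow it in MAF-translocated myeloma fell as well. Of 7 tested members of the MAF list, 5 fell and 0 rose with the block (median log2 fold change -0.93), and 2, NUAK1 and CCR1, fell without it. The falls are 71.4% of the list with the block and 28.6% without it, against 6.48% and 0.719% of all genes. MAF (NCBI Gene 4094) was at 177, 288 and 222 CPM with both drugs, against 425, 563 and 386 CPM with panobinostat. The groups did not overlap, and MAF fell by 1.00 ± 0.09 on the log2 scale (edgeR adjusted p = 0.0647 without the block and 1.39e-08 with it). NUAK1, a kinase related to AMPK, was at 16.6, 25.1 and 19.2 CPM with both drugs, against 40.6, 53.4 and 46.9 CPM with panobinostat (log2 fold change -1.22 ± 0.14, edgeR adjusted p = 0.00375 without the block). CCR1, a receptor for inflammatory chemokines, was at 26.4, 38.7 and 31.5 CPM with both drugs, against 68.9, 84.5 and 93.3 CPM with panobinostat (log2 fold change -1.35 ± 0.26, edgeR adjusted p = 0.0237 without the block). With replicate 1 left out of the block fit, CCR1 did not pass (edgeR adjusted p = 0.136). CCND2, which encodes cyclin D2, was at 225, 324 and 264 CPM with both drugs, against 299, 556 and 437 CPM with panobinostat, and fell by 0.65 ± 0.10 on the log2 scale, though its groups overlapped (edgeR adjusted p = 0.119 without the block). ITGB7, an adhesion receptor subunit, fell by 0.33 ± 0.08 (edgeR adjusted p = 0.438 without the block).

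**Figure D2:**
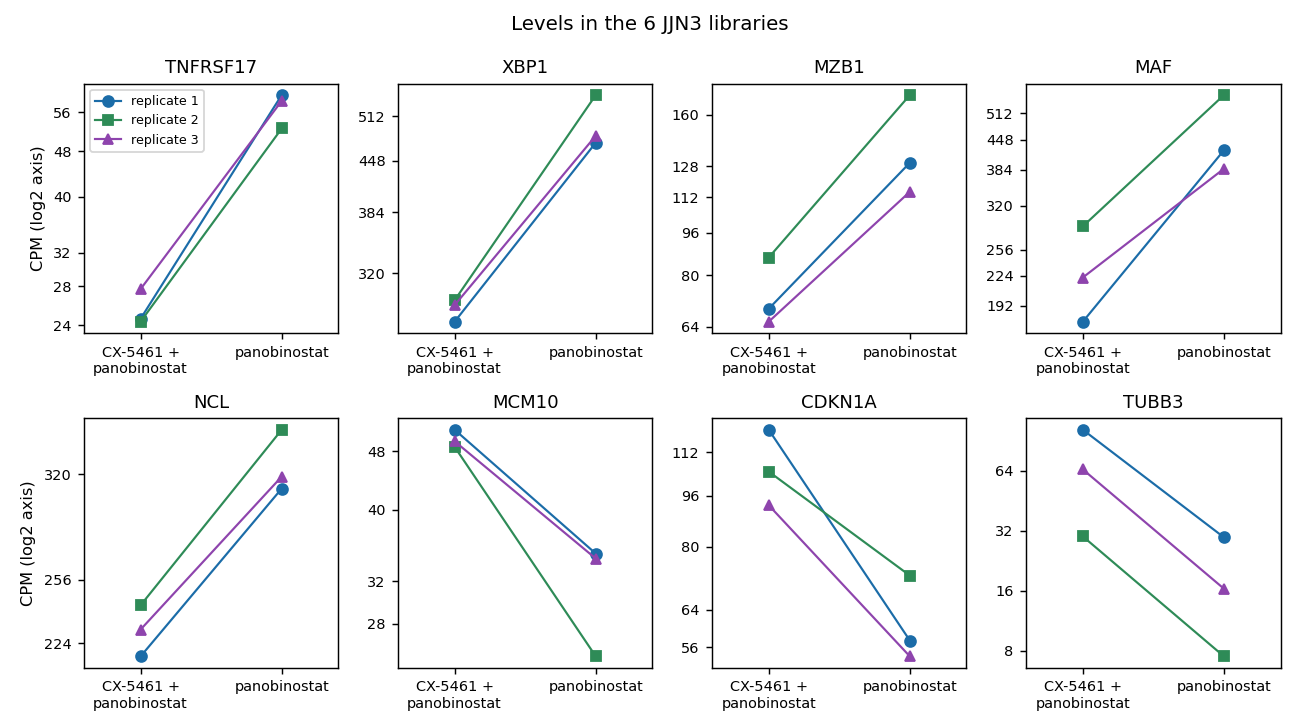
Level in CPM, on a log2 axis, of 8 genes in the 6 libraries, with CX-5461 plus panobinostat on the left and panobinostat on the right of each panel and a line joining libraries of the same replicate number. TNFRSF17, XBP1, MZB1, MAF and NCL are lower and MCM10, CDKN1A and TUBB3 higher with both drugs in all 3 pairs, and replicate 2 starts from a lower TUBB3 level (7.50 CPM with panobinostat) than replicates 1 and 3 (29.7 and 16.4 CPM).

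For 21 genes the 250 bases before their RefSeq start sites (GRCh38.p14) were read for 3 motifs on both strands. These motifs were the cAMP response element TGACGTCA, the E-box CACGTG and the MAF recognition half-site TGCTGAC. The genes include some that fell, some that rose and some, such as JCHAIN and SDC1, that did not pass. Of 35116 such windows in the table, 1.65%, 6.34% and 3.43% held them. Of 21 genes looked up, 15 had windows. MAF was the only one of these with TGACGTCA, MZB1 the only one with CACGTG, and RND3 and TUBB3 the only ones with TGCTGAC, in both windows of RND3 and 1 of the 2 windows of TUBB3. NUAK1, CCR1 and ITGB7 held none of the 3. The 3 windows below are shown because they hold a match beside a gene that fell (MAF, MZB1) or rose (TUBB3), with the match in capitals. The matches start 45, 117 and 117 bases before the RNA start, and that of TUBB3 reads on the other strand. They describe the sequence and show no binding, and their number was not tested against the shares over all windows.
MAF, chr16:79600738-79600987, minus strand: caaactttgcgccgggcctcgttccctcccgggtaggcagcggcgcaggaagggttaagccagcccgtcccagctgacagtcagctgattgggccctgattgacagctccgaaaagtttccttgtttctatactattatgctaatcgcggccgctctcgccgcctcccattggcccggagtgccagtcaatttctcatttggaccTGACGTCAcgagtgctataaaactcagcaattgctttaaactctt
MZB1, chr5:139389914-139390163, minus strand: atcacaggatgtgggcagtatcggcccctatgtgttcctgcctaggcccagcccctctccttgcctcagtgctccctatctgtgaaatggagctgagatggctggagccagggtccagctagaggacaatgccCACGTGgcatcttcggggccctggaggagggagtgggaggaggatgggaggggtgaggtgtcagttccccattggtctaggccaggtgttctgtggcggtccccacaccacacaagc
TUBB3, chr16:89921675-89921924, plus strand: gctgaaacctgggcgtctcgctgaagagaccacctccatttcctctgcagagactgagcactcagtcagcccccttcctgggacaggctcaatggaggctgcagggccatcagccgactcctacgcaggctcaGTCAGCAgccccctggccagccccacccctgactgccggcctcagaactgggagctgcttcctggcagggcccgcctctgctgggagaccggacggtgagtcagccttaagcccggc

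The largest falls among the genes called without the block, at an average of at least 3 log2 CPM, were in MAGI2, KIAA1549L, ANK3, CD200R1, LINC01432, RND3, COL24A1, CCR1, CALN1 and NUAK1. MAGI2, a scaffold protein of cell junctions, was at 2.67, 8.05 and 6.75 CPM with both drugs, against 15.3, 30.4 and 15.4 CPM with panobinostat (log2 fold change -1.81 ± 0.29, edgeR adjusted p = 0.0327 without the block). ANK3, which encodes ankyrin-G, a protein that anchors membrane proteins to the cytoskeleton, was at 5.63, 6.67 and 7.10 CPM with both drugs, against 17.6, 16.5 and 21 CPM with panobinostat, a 2.86-fold fall. CD200R1, an inhibitory receptor of immune cells, was at 6.05, 5.49 and 5.37 CPM with both drugs, against 15.6, 18.9 and 12.9 CPM with panobinostat, a 2.75-fold fall. RND3, a small GTP-binding protein that loosens actin fibres, was at 14.8, 16.7 and 13.9 CPM with both drugs, against 33.0, 51.7 and 36.5 CPM with panobinostat (log2 fold change -1.39 ± 0.14, edgeR adjusted p = 0.00353 without the block). In all 10 genes the groups did not overlap, with the libraries with both drugs lowest, as was so for 9.45% of all genes, while 10.5% of all genes had them highest. F2RL3, a thrombin receptor, joined the largest falls with the block, at 1.55, 2.55 and 1.73 CPM with both drugs, against 3.86, 6.0 and 4.24 CPM with panobinostat (edgeR adjusted p = 0.0517 without the block). IGF1, a growth factor of myeloma cells, fell to 116, 125 and 149.9 CPM with both drugs, against 208, 185 and 249 CPM with panobinostat, 1.64-fold lower (edgeR adjusted p = 0.0227 without the block).

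At an average of at least 3 log2 CPM, the largest rises called without the block were in NDRG4, SAT1, FSCN1, PPM1N, FAM89B, TEX30, JUP, CDKN1A, SLC25A4 and PCDH9. SAT1, the acetyltransferase that starts the breakdown of polyamines, was at 383, 190.2 and 231 CPM with both drugs, against 129, 98.4 and 114 CPM with panobinostat. It rose by 1.21 ± 0.24 on the log2 scale, with no overlap (edgeR adjusted p = 0.0188 without the block), and did not pass with replicate 3 left out of the block fit (edgeR adjusted p = 0.159). FSCN1, a protein that bundles actin filaments, was at 217, 109 and 160.1 CPM with both drugs, against 92.7, 40.7 and 74.1 CPM with panobinostat, a 2.36-fold rise (edgeR adjusted p = 0.0385 without the block). JUP, which encodes the junction protein plakoglobin, was at 109.7, 70.1 and 108 CPM with both drugs, against 61.7, 40.9 and 59.2 CPM with panobinostat, a 1.77-fold rise. SLC25A4, which exchanges ADP and ATP across the inner mitochondrial membrane, rose 1.72-fold (edgeR adjusted p = 0.0304 without the block).

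Some members of a list of neuronal genes were among the rises with the block. TUBB3, a tubulin of neurons, was at 103, 30.0 and 65.1 CPM with both drugs, against 29.7, 7.50 and 16.4 CPM with panobinostat. Within each pair the rise was nearly the same, from 1.78 to 1.97 on the log2 scale, and the fit gave 1.90 ± 0.14, a 3.73-fold rise (edgeR adjusted p = 0.0867 without the block and 5.45e-10 with it). NPTXR, HPCAL4, TMEM158 and SEZ6L2 rose 2.25, 2.14, 2.11 and 2.09-fold with the block, and did not pass without it (edgeR adjusted p = 0.208, 0.142, 0.052 and 0.103). Of these, only HPCAL4 is on the neuronal list. Of 12 tested neuronal genes 4 rose (TUBB3, SYT11, APLP1 and HPCAL4) and 0 fell with the block, and 0 passed without it. The rises are 33.3% of the tested members, against 5.78% of all genes higher. Only 35.3% of the 34 listed genes passed the filter on low counts and could be tested. For TUBB3, HPCAL4 and SEZ6L2 the mean level was under 1 CPM with CX-5461 alone and with vehicle (TUBB3 at 0.575 ± 0.253 and 0.399 ± 0.179 CPM, SD, n = 3 each). Such genes passed the filter through the libraries with panobinostat, where they are higher. The share of tested neuronal genes that rose is therefore a description and no test of the list.

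Of 20 tested genes often raised by histone deacetylase inhibitors, 8 rose and 1 fell with the block (median log2 fold change 0.52), and 1 rose without it, against 5.78% and 0.184% of all genes higher. Those that rose include CDKN1A, TUBB3, MT2A, HSPA2, SYT11, TMEM59L and DHRS2. Among them TUBB3 and SYT11 are also on the neuronal list and CDKN1A on the list of p53 targets, so these rises are counted in both. MT2A, a metallothionein with near-identical copies and so of uncertain count, rose 1.63-fold (edgeR adjusted p = 0.225 without the block). The one that fell was KLF6, a transcription factor of early responses, at 47.8, 60.6 and 52.3 CPM with both drugs, against 80.6, 102 and 95.3 CPM with panobinostat (log2 fold change -0.79 ± 0.11, edgeR adjusted p = 0.0645 without the block). Of 11 histone deacetylases, HDAC3 rose 1.43-fold and HDAC7 fell 1.27-fold with the block alone (edgeR adjusted p = 0.123 and 0.308 without it). Each is 9.09% of that list, against 5.78% of all genes higher and 6.48% lower. H3-3B, which encodes the replacement histone H3.3, was at 1288, 1126 and 1118 CPM with both drugs, against 863, 787 and 784 CPM with panobinostat, with no overlap (log2 fold change 0.54 ± 0.09, edgeR adjusted p = 0.0385 without the block). HEXIM1, an inhibitor of the elongation factor P-TEFb, had a log2 fold change of 0.25 ± 0.09 (edgeR adjusted p = 0.0777 with the block), and none of the 10 genes of its list passed.

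**Figure D3:**
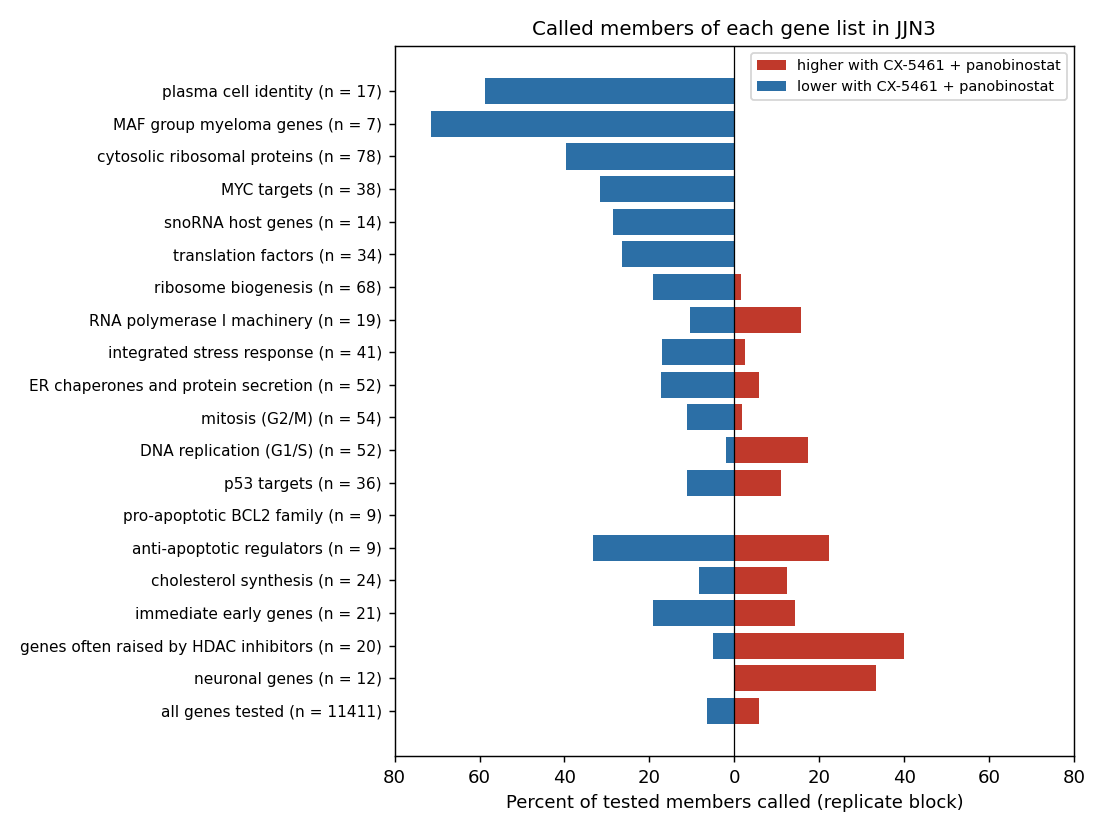
Share of the tested members of 19 gene lists, and of all 11411 genes, called higher (red, to the right) or lower (blue, to the left) with CX-5461 plus panobinostat than with panobinostat, replicate block. The plasma cell identity list has 10 of 17 members lower and the cytosolic ribosomal proteins 31 of 78, whereas 8 of 20 genes often raised by HDAC inhibitors are higher, against 5.78% of all genes higher and 6.48% lower.

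Of 78 cytosolic ribosomal protein genes 31 fell and 0 rose with the block, at a median of -0.20 on the log2 scale over the list, and 0 passed without it. The falls are 39.7% of the list, against 6.48% of all genes lower. The count of falls depended on the libraries and the scaling, with 5, 18 and 8 lower when replicate 1, 2 or 3 was left out and 12 lower under library size scaling. RPSA, of the small subunit, was at 637, 605 and 509 CPM with both drugs, against 749, 905 and 682 CPM with panobinostat, with no overlap (log2 fold change -0.41 ± 0.08, edgeR adjusted p = 0.133 without the block). These genes have near-identical processed copies, so single values are uncertain.

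Of 68 genes of ribosome biogenesis, 13 fell and 1 rose with the block, 19.1% and 1.47% of the list against 6.48% and 5.78% of all genes. With replicate 1, 2 or 3 left out, 6, 6 and 8 were lower. Without the block 1 fell. That 1 was NCL (NCBI Gene 4691), which encodes nucleolin, a nucleolar protein of ribosomal RNA processing. NCL was at 218, 243 and 230.4 CPM with both drugs, against 310.4, 352 and 318 CPM with panobinostat, with no overlap (log2 fold change -0.50 ± 0.08, edgeR adjusted p = 0.029 without the block). GNL3, the nucleolar GTPase nucleostemin, DKC1, the pseudouridine synthase dyskerin, and NOP56, of box C/D particles, fell by 0.57 ± 0.11, 0.44 ± 0.09 and 0.44 ± 0.09, with the block alone (edgeR adjusted p = 0.341, 0.201 and 0.285 without it). NPM1, an abundant nucleolar chaperone, was at 978, 953 and 994 CPM with both drugs, against 1123, 949 and 1045 CPM with panobinostat, with overlap (edgeR adjusted p = 0.471 with the block).

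A few genes of the RNA polymerase I machinery itself passed, in both directions. Of 19 genes, 3 rose and 2 fell with the block, 15.8% and 10.5% of the list against 5.78% and 6.48% of all genes. With replicate 1 left out 2 rose and 0 fell, and 0 passed without the block. UBTF, the factor that keeps ribosomal DNA open, was at 45.2, 47.9 and 60.1 CPM with both drugs, against 64.2, 67.7 and 72.3 CPM with panobinostat (log2 fold change -0.42 ± 0.11, edgeR adjusted p = 0.196 without the block), and TAF1D, of the selectivity factor SL1, fell by 0.44 ± 0.09 (edgeR adjusted p = 0.615 without the block). The 3 that rose, POLR2E, POLR2K and POLR2L, encode subunits that RNA polymerases I, II and III share. The largest subunit genes POLR1A and POLR1B were not called, at -0.28 ± 0.31 and -0.25 ± 0.18 in log2 units (edgeR adjusted p = 0.617 and 0.418 with the block).

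Of 38 MYC targets 12 fell and 0 rose with the block, and 1 (NCL) fell without it. The falls with the block are 31.6% of the list, against 6.48% of all genes. Among them NCL, GNL3, DKC1 and NOP56 are also on the list of ribosome biogenesis and CCND2 on the MAF list, so these falls are counted in both. ENO1, a glycolytic enzyme, was at 2103, 1653 and 2172 CPM with both drugs, against 3095, 2202 and 2878 CPM with panobinostat, with no overlap (log2 fold change -0.46 ± 0.07, edgeR adjusted p = 0.166 without the block). MYC was at 51.2, 54.2 and 69.1 CPM with both drugs, against 73.4, 88.7 and 65.8 CPM with panobinostat, so the groups overlapped, and it did not pass (log2 fold change -0.36 ± 0.19, edgeR adjusted p = 0.271 with the block). Of 34 translation factors 9 fell and 0 rose with the block (1, 5 and 5 lower when replicate 1, 2 or 3 was left out), and 0 passed without it. The 9 are 26.5% of the list, against 6.48% of all genes. EIF5, which triggers GTP hydrolysis at the start codon, was at 115, 105 and 139 CPM with both drugs, against 168, 162 and 183 CPM with panobinostat (log2 fold change -0.52 ± 0.09, edgeR adjusted p = 0.0656 without the block). Of 14 host genes of small nucleolar RNAs 4 fell and 0 rose with the block, and 0 passed without it. With replicate 1, 2 or 3 left out, 1, 1 and 4 were lower. The 4 falls on all libraries are 28.6% of the list, against 6.48% of all genes. They include SNHG8, which fell 1.31-fold, and GAS5, which fell 1.27-fold.

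Targets of p53, which JJN3 is labelled as lacking, moved in no shared direction. Of 36 tested, 4 rose and 4 fell with the block, 11.1% each way against 5.78% and 6.48% of all genes. With replicate 1, 2 or 3 left out, 1 and 1, 3 and 1, and 3 and 4 rose and fell. Without the block 1 rose. That 1 was CDKN1A (NCBI Gene 1026), the gene of the p21 protein that halts the cell cycle, at 121, 105 and 92.8 CPM with both drugs, against 57.3, 72.2 and 54.2 CPM with panobinostat. Its groups did not overlap, and it rose by 0.81 ± 0.12 on the log2 scale (edgeR adjusted p = 0.0483 without the block and 7.97e-05 with it). RRM2B, a ribonucleotide reductase subunit, rose by 0.39 ± 0.10, while GADD45A, a growth arrest gene, and BTG2, an antiproliferative gene, fell by 0.50 ± 0.09 and 0.40 ± 0.10, all with the block alone (edgeR adjusted p = 0.125, 0.381 and 0.308 without it). MDM2, the ubiquitin ligase of p53, was at 43.2, 36.1 and 55.2 CPM with both drugs, against 41.4, 44.4 and 54.0 CPM with panobinostat. The groups overlapped and MDM2 did not pass (log2 fold change -0.05 ± 0.11, edgeR adjusted p = 0.816 with the block), and its sign turned under library size scaling (0.0306).

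None of the 9 pro-apoptotic members of the BCL2 family tested passed, with or without the block. BBC3, which encodes PUMA, was at 242, 294 and 204 CPM with both drugs, against 267, 314 and 257 CPM with panobinostat (log2 fold change -0.19 ± 0.09, edgeR adjusted p = 0.147 with the block), PMAIP1, which encodes NOXA, had a log2 fold change of 0.23 ± 0.14, and BCL2L11, which encodes BIM, 0.21 ± 0.13 (edgeR adjusted p = 0.334 and 0.294 with the block). Of 9 anti-apoptotic genes 2 rose and 3 fell with the block, and 0 passed without it. The shares with the block are 22.2% and 33.3%, against 5.78% and 6.48% of all genes. MCL1, a survival factor of myeloma cells, was at 1132, 1165 and 1145 CPM with both drugs, against 933, 1072 and 896 CPM with panobinostat, with no overlap and a small rise (log2 fold change 0.25 ± 0.08, edgeR adjusted p = 0.396 without the block and 0.0237 with it). BIRC2, an inhibitor of apoptosis, rose 1.30-fold with the block alone. CFLAR, which blocks caspase-8, and XIAP, which blocks caspases directly, fell 1.35 and 1.41-fold with the block alone. With replicate 1 left out, none of these 5 genes was called.

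Of 52 replication genes 9 rose and 1 fell with the block, against 5.78% of all genes higher, with 3, 7 and 5 higher when replicate 1, 2 or 3 was left out and 17 higher under library size scaling, and 0 passed without the block. CDC6, which loads the replicative helicase, was at 82.0, 53 and 67.9 CPM with both drugs, against 45.1, 33.9 and 48.2 CPM with panobinostat (log2 fold change 0.68 ± 0.11, edgeR adjusted p = 0.158 without the block). MCM10, which helps to activate that helicase, was at 51.3, 48.7 and 49.5 CPM with both drugs, against 34.9, 25.3 and 34.3 CPM with panobinostat (log2 fold change 0.67 ± 0.12, edgeR adjusted p = 0.0909 without the block). In both genes the groups did not overlap. The one that fell was RRM2, the S phase subunit of ribonucleotide reductase, by 0.41 ± 0.10 (edgeR adjusted p = 0.549 without the block).

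Of 54 mitosis genes 1 rose and 6 fell with the block, a share of 11.1% lower beside 6.48% of all genes, and 0 passed without it. KIF20A, a motor of cytokinesis, was at 13.1, 18.3 and 12.5 CPM with both drugs, against 23.0, 31.9 and 22.8 CPM with panobinostat, and CDC20, which activates the anaphase-promoting complex, was at 96.9, 103 and 99.4 CPM with both drugs, against 144, 177 and 141 CPM with panobinostat. KIF20A fell 1.78-fold and CDC20 1.54-fold (edgeR adjusted p = 0.0899 and 0.0801 without the block), and MKI67, a marker of cycling cells, fell 1.39-fold (edgeR adjusted p = 0.212 without the block). With replicate 1 left out 0 mitosis genes passed, and with replicate 2 or 3 left out 5 were lower and 1 higher. TOP2A, the replicative topoisomerase II, was at 1426, 1362 and 1193 CPM with both drugs, against 1370.3, 1337 and 1380.1 CPM with panobinostat (log2 fold change -0.04 ± 0.08, edgeR adjusted p = 0.825 with the block, and 0.0463 on the log2 scale under library size scaling).

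Stress and secretory genes changed in part. Of 41 genes of the integrated stress response 1 rose and 7 fell with the block (5 and 6 under library size scaling, and 0 and 2, 4 and 4, and 2 and 7 when replicate 1, 2 or 3 was left out), and 0 passed without it. The shares with the block are 2.44% higher and 17.1% lower, against 5.78% and 6.48% of all genes. DDIT4, an inhibitor of the growth kinase complex mTORC1, was at 201, 214 and 158 CPM with both drugs, against 331, 430.2 and 215 CPM with panobinostat (log2 fold change -0.73 ± 0.12, edgeR adjusted p = 0.223 without the block). ATF4, the central factor of this response, fell by 0.38 ± 0.09 (edgeR adjusted p = 0.58 without the block), and its target DDIT3, which encodes CHOP, had -0.18 ± 0.24 (edgeR adjusted p = 0.704 with the block). Of 52 genes of the endoplasmic reticulum 3 rose (5.77%) and 9 fell (17.3%) with the block, and 0 passed without it. The share that rose is near the 5.78% of all genes higher, while 6.48% of all genes were lower. With replicate 1, 2 or 3 left out, 1, 4 and 6 were lower. Of 24 cholesterol synthesis genes, 3 rose (12.5%) and 2 fell (8.33%) with the block, and 0 passed without it. These are few genes, set against 5.78% of all genes higher and 6.48% lower. HMGCS1, of the first committed steps, was at 875, 862 and 987 CPM with both drugs, against 575, 755 and 684 CPM with panobinostat (log2 fold change 0.45 ± 0.09, edgeR adjusted p = 0.186 without the block), while INSIG1, which restrains the pathway, fell 1.28-fold.

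Single members of other lists also stood out. NDUFV2, a subunit of respiratory complex I, was at 533, 469 and 589.5 CPM with both drugs, against 968, 811 and 929.8 CPM with panobinostat, a 1.70-fold fall with no overlap (edgeR adjusted p = 0.0104 without the block). It was the only 1 of 53 nuclear genes of oxidative phosphorylation to pass without the block, and 4 fell with it. The 4 are 7.55% of the list, near the 6.48% of all genes that fell. PSMB10, a catalytic subunit of the immunoproteasome, was at 47.7, 68.7 and 64.4 CPM with both drugs, against 101, 142 and 95.9 CPM with panobinostat, a 1.88-fold fall (edgeR adjusted p = 0.0114 without the block). EGR1, an early growth response factor, fell by 0.81 ± 0.14 and IER5 rose by 0.63 ± 0.09 on the log2 scale (edgeR adjusted p = 0.0726 and 0.062 without the block). No gene of the mitochondrial genome (13 tested) or of MHC class II (7 tested) passed.

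Whether these effects of CX-5461 need panobinostat was tested as a difference: the log2 effect of CX-5461 with panobinostat minus its effect without it (CX-5461 against vehicle), within JJN3. Without the block edgeR called 0 of 11411 genes, and DESeq2 called 18. By edgeR 564 genes (4.94%) had an unadjusted p under 0.05, about the share expected if no gene differed. With the block edgeR called 105 (0.920%), of which 14 (0.123%) were more positive and 91 (0.797%) more negative with panobinostat, but 2, 95 and 54 without replicate 1, 2 or 3. TNFRSF17 was among the largest differences: its log2 change was -1.17 ± 0.13 with panobinostat and 0.33 ± 0.11 without it, where the 3 libraries averaged 117 ± 25.2 CPM with CX-5461 and 93.5 ± 23.8 CPM with vehicle (SD, n = 3 each). The difference was -1.50 ± 0.16 (edgeR adjusted p = 0.144 without the block and 4.43e-06 with it). Of the 17 plasma cell genes 6 were more negative with panobinostat and 0 more positive with the block, namely TNFRSF17, TNFRSF13B, XBP1, POU2AF1, IKZF3 and CD79B, at differences of -1.50 to -0.60. IRF4 had a difference of -0.42 ± 0.13 that did not pass (edgeR adjusted p = 0.12 with the block).

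CTLA4, an inhibitory receptor, had a difference of -1.57 ± 0.28 and IGF1 one of -1.09 ± 0.15 (edgeR adjusted p = 0.00207 and 3.55e-04 with the block). IGF1 averaged 197 ± 31.1 CPM with CX-5461 and 152 ± 5.95 CPM with vehicle (SD, n = 3 each), so its change with CX-5461 alone was 0.38 ± 0.11 (edgeR adjusted p = 0.0803 with the block), against a fall with panobinostat. In the other direction FSCN1 differed by 1.2 ± 0.25 and JUP by 1.26 ± 0.21 (edgeR adjusted p = 0.0121 and 0.00146 with the block). CYB561, an electron carrier of membranes, rose by 0.41 ± 0.11 with panobinostat and fell by 0.58 ± 0.11 without it, a difference of 0.99 ± 0.16 (edgeR adjusted p = 0.00123 with the block). GAPDH, a glycolytic enzyme with many processed copies, had a change of -0.17 ± 0.08 with panobinostat that did not pass and fell by 0.77 ± 0.08 without it. For MAF, NCL and CDKN1A no difference was called, at -0.42 ± 0.13, -0.06 ± 0.11 and 0.37 ± 0.19 (edgeR adjusted p = 0.119, 0.906 and 0.459 with the block). MAF and NCL fell with CX-5461 alone too, by 0.58 ± 0.09 and 0.45 ± 0.07 (edgeR adjusted p = 5.82e-04 and 0.00106 with the block).

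**Figure D4:**
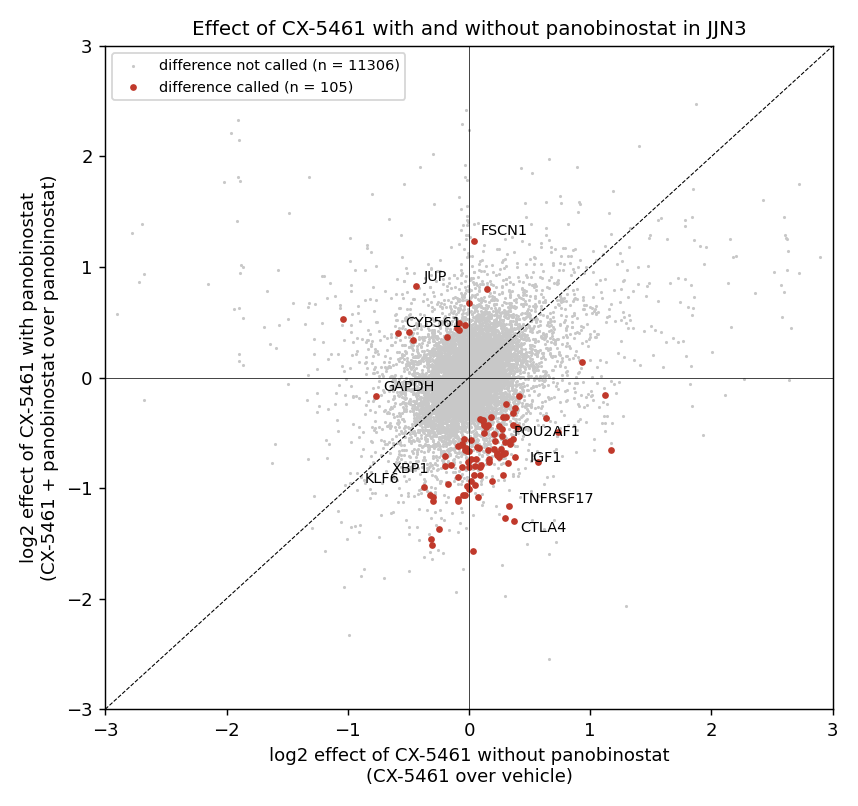
Log2 effect of CX-5461 with panobinostat (vertical) against its log2 effect without panobinostat (horizontal) in JJN3, replicate block, 1 point per gene, with 8 genes outside the axes. The 105 red genes are those whose 2 effects differed, and most lie below the dashed line of equal effects, among them TNFRSF17 at -1.17 with and 0.33 without panobinostat.

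The same addition was compared with MM1.S in a fit of all 24 libraries without a block. In MM1.S the deviations of same-numbered libraries correlated at -0.0474 to 0.29 over all pairs of groups, against -0.29 to 0.145 between different numbers. These ranges overlap, so the MM1.S numbers were not taken as pairs. Between the combination and panobinostat libraries alone, numbers 1, 2 and 3 gave 0.22, 0.29 and 0.0756, all positive. The effect in JJN3 differed from that in MM1.S for 89 of 12872 genes (0.691%), 37 more positive in JJN3 and 52 more negative, and for 20 to 174 genes when 1 library was left out, with the fewest without replicate 1 of the JJN3 combination and the most without replicate 1 of MM1.S panobinostat. A block changes the calls: with the replicate number as a block the effect differed for 770 genes, and with a block in JJN3 alone, an alternative chosen after seeing the data, for 489. MDM2 had the effect -0.06 ± 0.16 in JJN3, against 1.38 ± 0.15 in MM1.S, where it was at 466, 393 and 548 CPM with both drugs and 143, 184 and 213 CPM with panobinostat (difference -1.44 ± 0.22, edgeR adjusted p = 0.00166). PLK1, a kinase of mitosis, had the effect -0.13 ± 0.19 in JJN3, against -2.26 ± 0.32 in MM1.S, at 1.13, 1.16 and 2.92 CPM with both drugs and 9.98, 7.13 and 8.02 CPM with panobinostat (difference 2.13 ± 0.38, edgeR adjusted p = 0.0075).

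Of the genes that fell most in JJN3, NUAK1 had an effect of -1.22 ± 0.17 in JJN3 and 0.40 ± 0.24 in MM1.S (difference -1.62 ± 0.29, edgeR adjusted p = 0.00849). TNFRSF13B had -1.09 ± 0.17 in JJN3 and -0.03 ± 0.17 in MM1.S, and MZB1 -0.93 ± 0.14 and -0.07 ± 0.16 (edgeR adjusted p = 0.0317 and 0.0425 for the differences). For TNFRSF17, XBP1, MAF and NCL the difference between the lines did not pass, at -0.71 ± 0.39, -0.49 ± 0.15, -0.07 ± 0.34 and -0.50 ± 0.15 (edgeR adjusted p = 0.446, 0.117, 0.967 and 0.118). With the block those of XBP1 and NCL did (edgeR adjusted p = 0.00996 and 0.0112). The effect on MAF was -1.0 in JJN3 and -0.93 ± 0.26 in MM1.S. Among the rises, FAM89B had an effect of 1.00 ± 0.16 in JJN3 and -0.14 ± 0.16 in MM1.S, and JUP 0.82 ± 0.14 and -0.17 ± 0.13 (edgeR adjusted p = 0.0139 and 0.012 for the differences). CDKN1A had an effect of 0.80 in JJN3 and 0.33 ± 0.16 in MM1.S, and the difference of 0.47 ± 0.22 did not pass (edgeR adjusted p = 0.366).

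**Figure D5:**
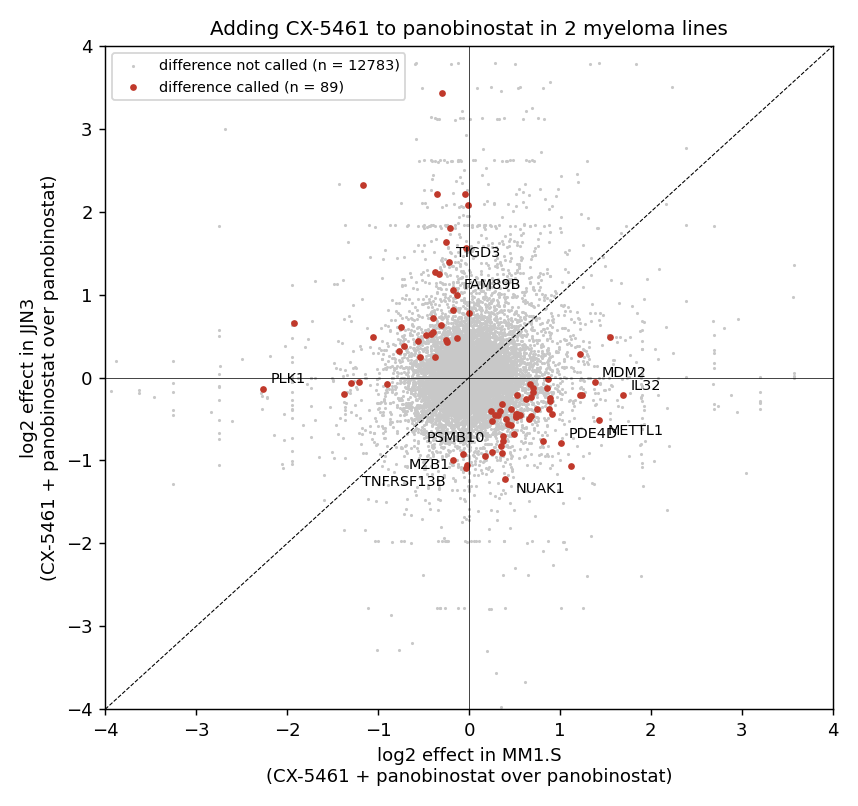
Log2 effect of adding CX-5461 to panobinostat in JJN3 (vertical) against the same effect in MM1.S (horizontal), fit of 24 libraries without a block, 1 point per gene, with 26 genes outside the axes. The 89 red genes are those whose effect differed between the lines, among them MDM2 at -0.06 in JJN3 and 1.38 in MM1.S, PLK1 at -0.13 and -2.26, and NUAK1 at -1.22 and 0.40.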

How the data were processed

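Polyadenylated RNA of 24 libraries was read by 3′ RNA sequencing. The authors deposited raw read counts per gene for each line; the submitters' processing notes name HISAT2 2.2.1, featureCounts 2.0.1, limma 3.50.0 and GRCh37 (hg19), and the sources used here give neither strand setting nor gene annotation. The tables hold 28395 NCBI Gene IDs, of which 27745 matched a symbol in the RefSeq GRCh38.p14 table, used for names and promoter windows only; the other 650 held at most 0.0318% of a JJN3 library's counts.

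Counts of the 12 JJN3 libraries were fitted together with edgeR 4.0.16 in R 4.3.3 (filterByExpr, TMM scaling, robust quasi-likelihood F-test, Benjamini-Hochberg adjustment over all genes tested, threshold 0.05), with 4 group means and, in the second fit, the replicate number as a block. The lines were compared in 1 fit of 24 libraries. CPM values of genes are TMM-scaled, those of marker lists are per library total. In JJN3 same-numbered libraries deviated together, at correlations of 0.201 to 0.485 over the pairs of groups, so the numbers pair the libraries; this comes from the data, since the labels give numbers only. The scripts were tested on simulated counts. limma 3.58.1 and DESeq2 1.42.0 were alternatives.

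Genes named with values are the 10 largest rises and falls among calls without and with the block at an average of at least 3 log2 CPM, up to 4 members per list by p, a panel, and the 5 largest differences each way between conditions or lines; IKZF3, ELL2, POU2AF1, JCHAIN, SDC1, XIAP, RRM2, IGF1 and GAPDH were chosen after their values were seen. The comparison, its lists and its members were chosen with earlier results of these data known. For 2 CX-5461 libraries a label field differs from the title in the compound's number, and the titles were used. With 3 libraries a group, an exact permutation test of a single value cannot go below 0.1, so none is given. Some genes are not reported here.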

Additional observations from a re-analysis of the deposited data

Results flagged for a closer look

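Results are listed here because the effect of CX-5461 differed between conditions or between lines by edgeR's test of the difference itself. Within JJN3, the effect with panobinostat minus the effect without it, in log2 units and with the replicate block, was -1.57 for CTLA4, -1.50 for TNFRSF17, -1.34 for LINC01521, -1.23 for ITGB8-AS1, -1.21 for ANK3, -1.14 for CD200R1, -1.13 for COL24A1, -1.09 for IGF1, -1.0 for TNFRSF13B, -0.82 for POU2AF1, -0.641 for KLF6, -0.618 for IKZF3 and -0.603 for XBP1. It was 1.26 for JUP, 1.2 for FSCN1, 0.99 for CYB561, 0.904 for GOLPH3L, 0.799 for MAPK8IP3, 0.677 for CDC6, 0.60 for GAPDH and 0.553 for HMGCS1. None of these passed without the block. ITGB8-AS1 is antisense to ITGB8, and with the strand setting not given its reads cannot be told apart from those of its partner.

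The effect of adding CX-5461 to panobinostat in JJN3 minus that in MM1.S, in log2 units and without a block, was 2.56 for EFR3B, 2.13 for PLK1, 2.02 for NCAM1, 1.64 for CDC42EP3, 1.61 for TIGD3, 1.58 for CD40, 1.23 for TMEM158, 1.14 for FAM89B, 0.995 for JUP, 0.777 for SLC25A4 and 0.621 for MCL1. It was -2.20 for SYNDIG1, -1.94 for METTL1, -1.91 for IL32, -1.80 for PDE4D, -1.62 for NUAK1, -1.44 for MDM2, -1.28 for PSMB10, -1.06 for TNFRSF13B and -0.858 for MZB1.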

How the results depend on the processing

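Against 21 genes higher and 82 lower without the replicate block, the block gave 659 and 740, and 129 and 188, 455 and 563, and 340 and 465 without replicate 1, 2 and 3. Without the block, library size scaling gave 59 higher and 56 lower, DESeq2 79 and 185, no filter on low counts 167 and 272, and limma-voom 32 and 78. With the block, a fit of the 6 libraries gave 873 and 976, DESeq2 391 and 569, limma-voom 710 and 801, and library size scaling 1174 and 475. Leaving out 1 library gave 0 to 32 higher and 0 to 73 lower.

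For the difference with and without panobinostat, 0 genes were called without the block, 0 to 1 with 1 library left out, 18 by DESeq2, 46 with no filter, 105 with the block, and 2, 95 and 54 with the block without replicate 1, 2 and 3. For JJN3 against MM1.S, 89 genes became 237 by DESeq2, 321 with no filter, 20 to 174 with 1 library left out, 770 with the block and 249, 539 and 134 with the block without replicate 1, 2 and 3. A block in JJN3 alone, chosen after seeing the data, gave 489. The cause was not tested.

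Of 125 named genes, 33 were called without the block and 104 with it. None of the 33 was still called at every left-out library, since combination replicate 1 ends them all. Of the 104, 64 were still called at every left-out replicate number, and all 104 had the same sign there; limma-voom, DESeq2 and library size scaling, each with the block, called 104, 97 and 102 of them. Signs turned for genes that were not called without the block. MDM2 came to 0.0305 under library size scaling, 0.0306 with the block too, 0.041 with the block without replicate 2, and -0.227 to 0.0758 with 1 library left out. TOP2A came to 0.0424, 0.0463, 0.04 (without replicate 3) and -0.0926 to 0.0341, and GAS5 to -0.585 to 0.000596 with 1 library left out. Depth limits genes near the floor of 0.631 CPM.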
